A study of Mus musculus with 16 samples.

Results

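The genes described here build and steer the vesicles that travel between the endoplasmic reticulum (ER) and the Golgi apparatus. They were listed by name as 46 genes, and their rows were found by gene symbol in the expression table of 31053 genes. Of the 46, 45 were found and all 45 passed the filter on low values. Tmed2, a p24 protein, was not matched by symbol and is not analysed here. The mRNA was sequenced from 16 samples of C2C12, a mouse myoblast line that fuses into myotubes in culture. WT and Fam134b KO cells were each sampled as myoblasts and as myotubes, with 4 samples in every group. All groups were grown in the same medium with fetal bovine serum, and the myotubes formed spontaneously after the cells had become confluent. The knockout cells carried Cas9 and guide RNAs against Fam134b, an ER-phagy receptor, delivered by lentivirus and selected with antibiotics, and whether they were 1 clone or a pool is not stated in the sources used here. The labels call the 4 samples of a group biological replicates.

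COPII coats bud vesicles from ER exit sites and carry newly made secretory and membrane proteins forward. COPI coats bud vesicles from the Golgi and the intermediate compartment (ERGIC) and carry escaped ER residents and cycling receptors back. Cargo receptors, KDEL receptors and p24 proteins (the Tmed genes) span these membranes, bind cargo on the inner side and travel with both coats.

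Values below are normalized counts, that is, 2 to the power of the deposited log2 value, minus 1. Differences are given on the log2 scale of the normalized count plus 1 with a standard error (SE) from limma, fitted to the 10767 genes that reached a normalized count of 10 in 4 or more of all 16 samples. The SE of a gene is pooled over the 4 groups and does not measure the spread within a single group. Called genes are those whose p, adjusted over all these genes by Benjamini-Hochberg, was under 0.05. Between 1484750 and 3287461 reads per sample were counted on genes, and the least deep libraries were Fam134b KO myotube replicates 4 and 2, with 1484750 and 1790524 reads. The members' values rested on 7 to 2312 reads. Fam134b itself ranged from 149.7 to 251 (WT) and from 23.4 to 35.6 (KO) in myoblasts, and from 146 to 287 (WT) and from 28.0 to 56.9 (KO) in myotubes. Its log2 fold change in the knockout was -2.86 in myoblasts and -2.46 in myotubes. Summed muscle markers stood apart between the groups as well. The summed level of 8 muscle differentiation genes in myoblasts ran from 1262 to 1981 (WT) and from 237 to 307 (KO, where Myog was at 0). In myotubes it ran from 14450 to 20340 (WT) and from 8110 to 10830 (KO). Of 5 adipocyte markers, Adipoq and Plin1 were at 0 in every sample, but the summed list ran from 8.91 to 20.01 (WT) and from 67.2 to 115 (KO) in myoblasts and from 54.9 to 157 (WT) and from 166 to 400 (KO) in myotubes, with Lpl the main contributor. Of 5 osteoblast markers, Alpl and Ibsp were at 0 in every sample, and the summed list, which was mostly Runx2, ran from 111 to 150 (WT) and from 68.9 to 118 (KO) in myoblasts and from 38.9 to 83.6 (WT) and from 26.3 to 76.5 (KO) in myotubes. Of 5 macrophage markers, Ptprc and Adgre1 were at 0 in every sample, and the sums lay between 7.99 and 28.1 in all groups. The part of these markers in the members' differences was not tested. In bulk samples, a change in the share of cells of a type and a change of RNA per cell cannot be told apart.

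The promoters of 41 of the 46 genes were at hand, taken from RefSeq on the build GRCm38.p6, the assembly that the submitters' processing notes name mm10. Each covers 250 bases before to 50 after a start site. Arcn1, Kdelr2, Lman1, Tmed2 and Tmed7 had no entry. The letters TGACGTGG, the core of the unfolded protein response element that the factors XBP1 and ATF6 can bind, were searched on both strands. A gene counted as a match if any of its promoters matched. The core occurred in promoters of 7 of the 41 genes (17.1%), which were Arf1, Copb1, Copb2, Gbf1, Kdelr3, Sec23a and Sec24d. Among the tested genes with a promoter the share was 1.09% (90 of 8266), and among all genes in the promoter table it was 0.714% (193 of 27025). All 7 sites are shown, whether or not the gene was called in a comparison. Each sequence is written 5′ to 3′ on the strand that reads TGACGTGG, with that core in capitals and 11 bases on either side.

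Arf1 (chr11:59228228-59228257, minus strand): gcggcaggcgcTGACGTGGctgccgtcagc
Copb1 (chr7:114254690-114254719, plus strand): aagtccttggcTGACGTGGaagggggcggg
Copb2 (chr9:98563713-98563742, minus strand): ggccaacccacTGACGTGGaacttccggga
Gbf1 (chr19:46152535-46152564, minus strand): tgtcagctcacTGACGTGGtaactagcctc
Kdelr3 (chr15:79516367-79516396, minus strand): tggccgcgcggTGACGTGGcggggcggcca
Sec23a (chr12:59011993-59012022, minus strand): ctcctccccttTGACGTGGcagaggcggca
Sec24d (chr3:123267459-123267488, plus strand): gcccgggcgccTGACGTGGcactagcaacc

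The core began shortly before the start site in 5 of these genes. Read along the gene, its first base lay 30 bases before the start in Kdelr3, 28 in Copb1, 26 in Sec24d, 12 in Gbf1 and 7 in Copb2. In Arf1 it lay 84 bases before 1 of the gene's start sites, and in Sec23a 6 bases after the start. The Kdelr3 site in its setting, with all 250 bases before the start site read along the gene and the core in capitals on the opposite strand, is chr15:79516158-79516407.

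Kdelr3 promoter, plus strand: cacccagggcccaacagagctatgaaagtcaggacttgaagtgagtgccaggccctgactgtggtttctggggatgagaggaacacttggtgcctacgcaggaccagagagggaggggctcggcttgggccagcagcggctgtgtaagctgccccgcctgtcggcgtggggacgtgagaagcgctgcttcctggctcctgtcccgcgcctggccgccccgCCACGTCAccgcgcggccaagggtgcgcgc

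The shorter letters TGACGT lie inside that core and are shared with the cyclic AMP response element. They occurred in promoters of 15 of the 41 genes (36.6%) and of 14.2% of the tested genes with a promoter. Besides the 7 genes above these were Cope, Copz1, Mia3, Sar1a, Sec16a, Sec23b, Sec24a and Sec24c. The ER stress response element, searched as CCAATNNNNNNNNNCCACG and as ATTGGNCCACG on both strands, had no match in the promoters of the 41 genes. A match is given as a description of the sequence and not as a bound site.

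The first question was which of these genes change when WT myoblasts form myotubes. All 3 KDEL receptors, 5 of 7 cargo receptors and ERGIC proteins, 5 of 7 measured p24 genes and the exit site receptor Mia3 rose, as did Sec23a among the 17 subunits of both coats. Of the 45 members, 15 rose and 1 fell, against 13.8% and 9.16% of all tested genes. The median difference of the members was 0.28 on the log2 scale, against -0.01 for all tested genes, and 32 of the 45 differences were above 0. In 10 members (22.2%) the 4 myotube samples did not overlap the 4 myoblast samples, a smaller share than the 28.0% of all tested genes. All 10 of these were KDEL receptors, cargo receptors or p24 proteins, and all had higher values in the myotubes.

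Mia3 (also called TANGO1) binds bulky cargo such as procollagen at ER exit sites. In WT myoblasts its normalized counts were 115, 182, 101 and 70.4, and in WT myotubes they were 328, 176, 255 and 253. Only WT myotube replicate 2 fell within the range of the myoblasts. The difference was 1.15 with an SE of 0.25 (adjusted p = 0.00215). The other exit site scaffolds were not called, with differences of 0.34 for Sec16a, 0.19 for Sec23ip and -0.09 for Tfg.

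The 3 KDEL receptors, which return ER residents carrying a KDEL tail from the Golgi, all rose. Kdelr2 was at 357, 251, 284 and 244 in WT myoblasts and at 793, 489, 515 and 703 in WT myotubes. These groups did not overlap, and the difference was 1.12 with an SE of 0.25 (adjusted p = 0.00244). Kdelr3 rose by 0.96 and Kdelr1 by 0.64 (adjusted p = 0.0122 and 0.00387), both without overlap. The Kdelr3 call was lost without WT myoblast replicate 4 or without WT myotube replicate 1 (adjusted p = 0.0556 and 0.0533).

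Of the 7 cargo receptors and ERGIC proteins, 5 rose. Lman1 (ERGIC-53), a lectin that ferries glycoproteins such as blood clotting factors together with its partner Mcfd2, was at 119, 94.5, 86.1 and 50.8 in WT myoblasts and at 255, 112, 169 and 181 in WT myotubes. The groups overlapped at WT myotube replicate 2, and the difference of 1.03 with an SE of 0.36 passed narrowly (adjusted p = 0.0425). Its call was lost when WT myoblast replicate 2, 3 or 4 or WT myotube replicate 1, 3 or 4 was left out (adjusted p = 0.0609 to 0.159), and also without the filter on low values or with total scaling (0.0623 and 0.0601). Mcfd2 rose by 0.75, a call lost without WT myoblast replicate 2 or 4 or WT myotube replicate 1, 3 or 4 (adjusted p = 0.0525 to 0.0948). Lman2 (VIP36), a related lectin, rose by 0.70, a call lost without WT myoblast replicate 4 (adjusted p = 0.051). Surf4, a receptor for soluble cargo, rose by 0.72 (adjusted p = 0.0057) with no overlap between groups, and Ergic3 by 0.61 (adjusted p = 0.0477). The Ergic3 call was lost without WT myoblast replicate 2, 3 or 4 or WT myotube replicate 2, 3 or 4 (adjusted p = 0.0647 to 0.168), without the filter (0.0672) and with a replicate block (0.0625). Ergic1 and Ergic2, which form a cycling complex with Ergic3, were not called, with differences of -0.05 and 0.26.

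In the p24 family, whose members bind each other and help to sort cargo with lipid anchors, 5 of the 7 measured genes rose. Tmed10 was at 228, 298, 249 and 186 in WT myoblasts and at 635, 417, 417 and 485 in WT myotubes, with no overlap and a difference of 1.02 (SE 0.19, adjusted p = 0.000736). Tmed7 had the largest difference of all members, 1.27 with an SE of 0.37, from 84.9, 85.8, 70.1 and 71.3 in WT myoblasts to 262, 95.4, 221 and 227 in WT myotubes. WT myotube replicate 2 lay nearest the myoblasts in Tmed7 too. The Tmed7 call (adjusted p = 0.0183) was lost without WT myoblast replicate 3 or without WT myotube replicate 1, 3 or 4 (adjusted p = 0.0508 to 0.0709). Tmed9, Tmed3 and Tmed4 rose by 0.95, 0.88 and 0.82. The Tmed4 call was lost without WT myoblast replicate 2 or 4 or WT myotube replicate 1 or 4 (adjusted p = 0.0561 to 0.109). Tmed1 and Tmed5 were not called, with differences of 0.28 and -0.15.

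Few coat genes were called. Of the COPII coat, Sec23a stimulates GTP hydrolysis by the GTPase SAR1 and holds the cargo-binding Sec24 subunits. It rose from 112, 153, 107 and 93.6 in WT myoblasts to 232, 160, 147 and 216 in WT myotubes. The groups overlapped at myoblast replicate 2, and the difference was 0.69 with an SE of 0.19 (adjusted p = 0.0117). This call was lost without WT myoblast replicate 4 or WT myotube replicate 1 (adjusted p = 0.051 and 0.0515). None of the other 7 inner and outer coat genes was called, with differences from -0.23 for Sec31a to 0.36 for Sec24d. Of the 9 genes for COPI coatomer subunits, Copz1, a zeta subunit of the inner layer, fell by 0.65 (log2 fold change -0.65, adjusted p = 0.0137), from a mean of 1569 ± 204 (SD, n = 4) to 1023 ± 280, and the other 8 were not called. The Copz1 call was lost without WT myoblast replicate 3 or WT myotube replicate 1 (adjusted p = 0.055 and 0.0612). The 5 genes of the GTPases SAR1 and ARF1 and their exchange factors were not called.

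The count of 15 members that rose depended on single libraries. It was 8 without WT myoblast replicate 4 and 9 without WT myotube replicate 1. Mia3, Kdelr1, Kdelr2, Surf4, Tmed3, Tmed9 and Tmed10 were called under each of the 22 alternative settings run for this comparison. The summed level of 8 fibroblast and matrix markers moved in the same direction, from 3627 to 6892 in WT myoblasts and from 13860 to 25900 in WT myotubes. In every group this sum was mostly Col1a1, Col1a2 and Col3a1. Dcn and Postn also rose in WT, while Pdgfra was not called by limma (adjusted p = 0.406). Lum was too low to be tested, and Thy1 was at 0 in every WT sample. The summed level of 5 proliferation markers ran from 3315 to 4018 in WT myoblasts and from 1789 to 2916 in WT myotubes. Their part in the members' differences was not tested.

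**Figure D1:**
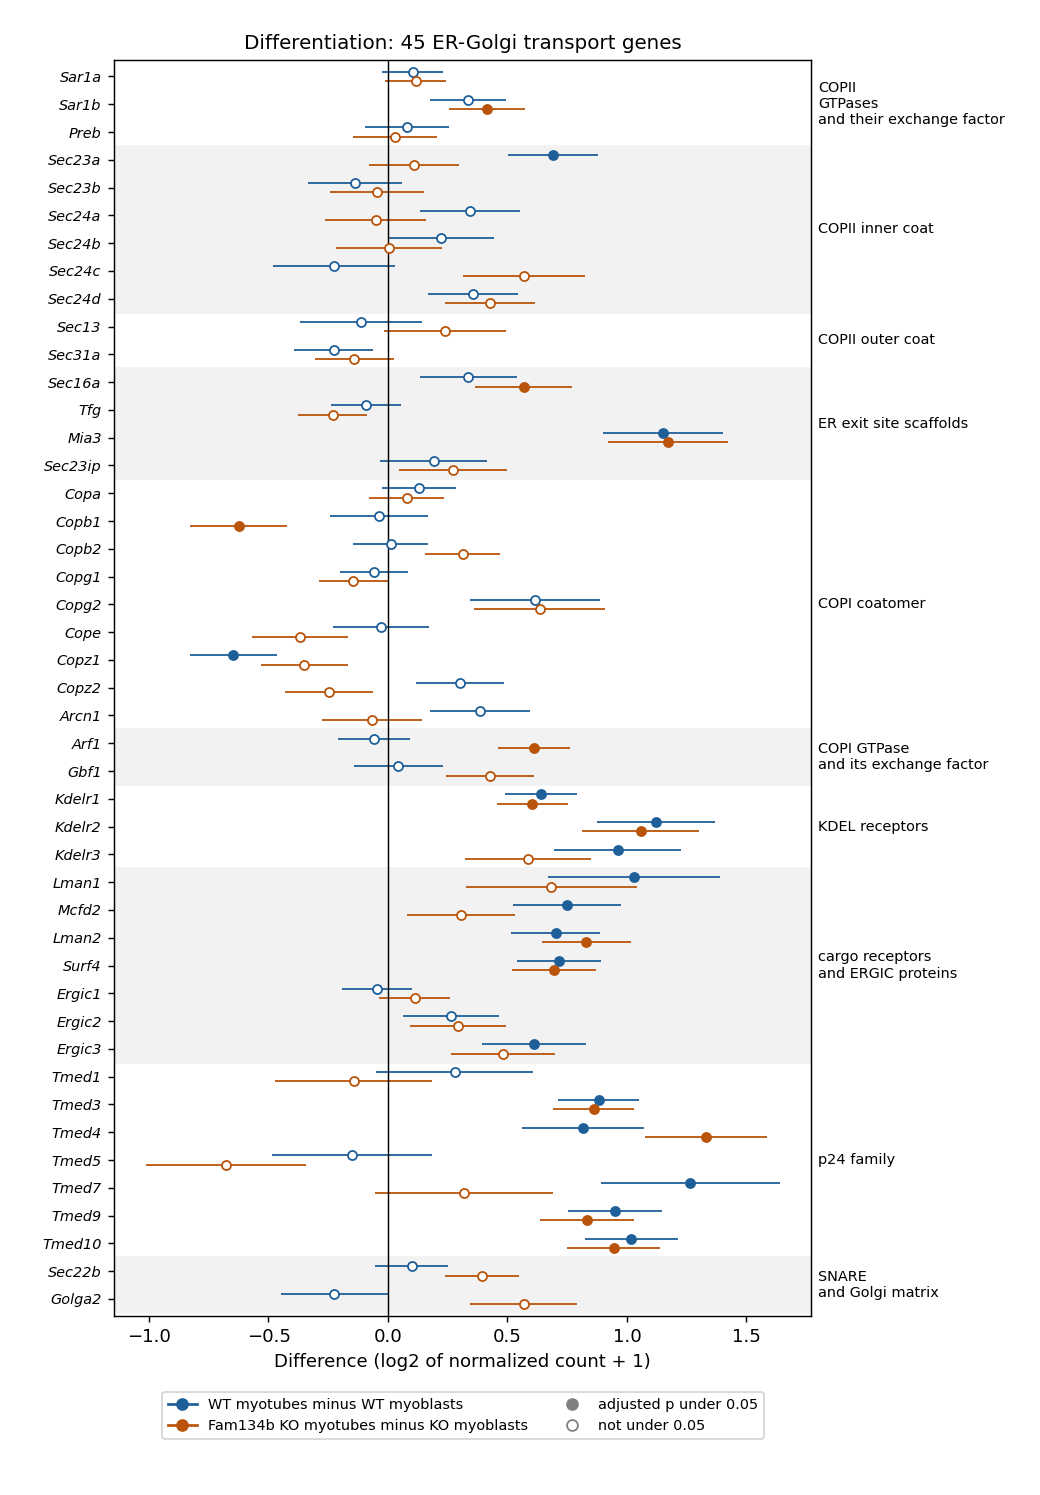
Difference between myotubes and myoblasts for the 45 genes, grouped by role, on the log2 scale of the normalized count plus 1 (horizontal axis), in WT (blue) and Fam134b KO (orange). Points are limma estimates, bars are 1 SE, and filled points passed an adjusted p of 0.05. Filled points gather among the KDEL receptors, cargo receptors and p24 family, with Mia3 at 1.15 and 1.17.

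The same comparison was made in Fam134b KO cells. Here 12 of the 45 members rose and 1 fell, against 17.3% and 16.1% of all tested genes. The median difference of the members was 0.31, against -0.02 for all tested genes, and 33 of 45 differences were above 0. The samples of both stages did not overlap in 13 members (28.9%), a share near the 27.4% of all tested genes. Of the 13, 11 had higher values in the myotubes, and Copb1 and Tfg had lower ones.

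The Mia3 counts were 152, 137, 218 and 124 in the myoblasts of this genotype and 436, 350.2, 282 and 342 in its myotubes. These did not overlap, and the difference was 1.17 with an SE of 0.25 (adjusted p = 0.00108). Sec16a, which organizes ER exit sites, rose by 0.57 (adjusted p = 0.0348), a call lost in 6 of the 8 fits that left out 1 library of this comparison (adjusted p up to 0.126): KO myoblast replicates 1, 3 and 4 and KO myotube replicates 1, 3 and 4. It was also lost with total scaling, with quantile normalization and without both libraries under 2000000 reads (adjusted p = 0.0515 to 0.0589).

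Kdelr2 rose from 397, 286, 471 and 306 to 1137, 1004, 531 and 509.5, a difference of 1.06 with an SE of 0.25 (adjusted p = 0.00237). The groups did not overlap, and the myotube samples fell into a higher and a lower pair. Kdelr1 rose by 0.60 (adjusted p = 0.00366), while Kdelr3 differed by 0.59 and was not called (adjusted p = 0.0924). Among the cargo receptors, Lman2 rose by 0.83 and Surf4 by 0.70. Lman1, Mcfd2 and Ergic3 were not called here, with differences of 0.68, 0.31 and 0.48. Without both libraries under 2000000 reads, Kdelr3 and Lman1 were called higher (log2 fold change 1.10 and 1.08, adjusted p = 0.00344 and 0.0341). In that fit Sec13 and Sec22b were also called higher (0.74 and 0.48, adjusted p = 0.0194 and 0.0434). Cope was called lower there (log2 fold change -0.67, adjusted p = 0.021).

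Tmed4 had the largest difference. It was at 28.9, 31.5, 25.2 and 36.7 in Fam134b KO myoblasts and at 126, 56.9, 74.7 and 67.9 in Fam134b KO myotubes. The groups did not overlap, although myotube replicate 1 stood above the other 3, and the difference was 1.33 with an SE of 0.26 (adjusted p = 0.000422). Tmed10 rose from 191, 210.0, 259 and 209 to 517, 511, 311 and 368 and Tmed3 from 128, 103, 145 and 167 to 278, 252, 192.5 and 259.8, both with no overlap and with differences of 0.95 and 0.86 (adjusted p = 0.000808 and 0.000525). Tmed9 rose by 0.83. Tmed7, which had risen in WT, was at 136, 47.3, 167 and 80.1 in Fam134b KO myoblasts and at 151, 226, 74.7 and 81.9 in Fam134b KO myotubes, which overlap widely (difference 0.32, SE 0.37).

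Arf1, the GTPase that recruits the COPI coat, rose from 1340.0, 1732, 1242 and 1291 to 2238, 1998, 2079 and 2188. The groups did not overlap, and the difference was 0.61 with an SE of 0.15 (adjusted p = 0.00354). Sar1b, the GTPase of the COPII coat, rose by 0.42 (adjusted p = 0.048). That call was lost without KO myoblast replicate 1, 2, 3 or 4 and without KO myotube replicate 1 or 4 (adjusted p up to 0.15), and in all it was lost under 15 of the 22 alternative settings. Among these were no filter, total scaling, quantile normalization, only the samples compared, sample weights, limma voom and the fit without both shallow libraries (adjusted p = 0.0508 to 0.103). The coatomer subunit Copb1 fell by 0.63 (log2 fold change -0.63, adjusted p = 0.0228), from 186 ± 26.5 (SD, n = 4) to 122 ± 26.8, and its call was lost without KO myoblast replicate 2 or KO myotube replicate 4 (adjusted p = 0.0647 and 0.0818) and without both shallow libraries (0.15), while without KO myotube replicate 2 the members that fell numbered 2. Mia3, Arf1, Kdelr1, Kdelr2, Lman2, Surf4, Tmed3, Tmed4, Tmed9 and Tmed10 were called under each of the 22 alternative settings. Between these stages the summed matrix markers went from a range of 6100 to 19430 to one of 20040 to 42830, and the proliferation markers from 2619 to 4570 to 773 to 1385. Their part was not tested.

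The differentiation comparisons of the genotypes share no samples, but both take the spread of a gene from the same fit of all 16 samples. Their calls are therefore not independent. In both comparisons 9 members were called, and all 9 rose in both: Mia3, Kdelr1, Kdelr2, Lman2, Surf4, Tmed3, Tmed4, Tmed9 and Tmed10. They were 9 of the 16 called in WT and 9 of the 13 called in Fam134b KO. Thus 9 of the 45 members rose in both, against 9.16% of all tested genes. The sign was the same in 36 of the 45 members (80.0%) and in 72.5% of all tested genes. Pearson's r between both sets of differences was 0.67 across the 45 members and 0.74 across all tested genes. Genes are not independent replicates.

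**Figure D2:**
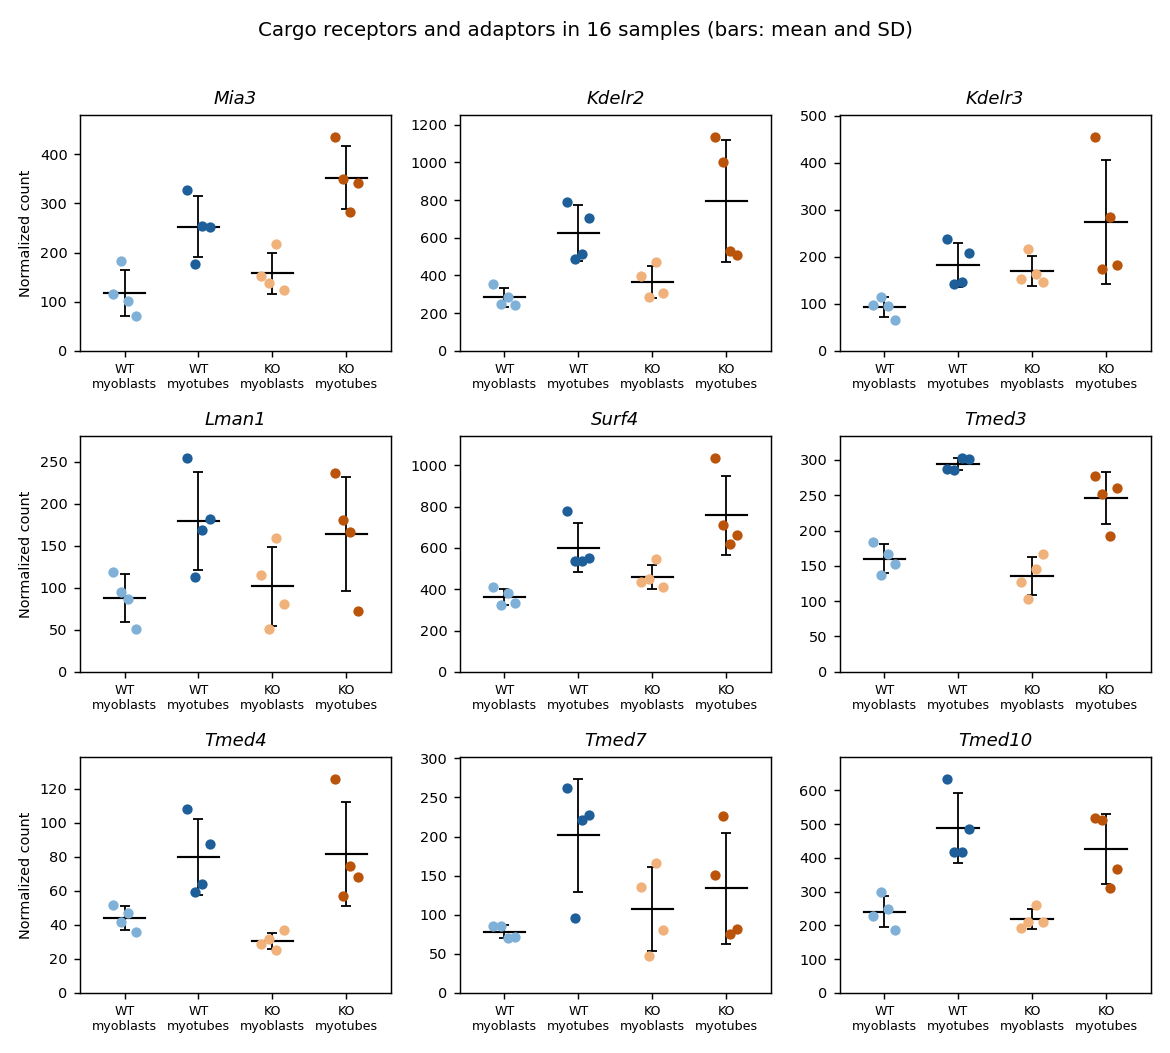
Normalized counts (vertical axis) of 9 receptors and adaptors in the 16 samples, 4 per group. Points are samples, horizontal lines are means and bars are 1 SD. In Mia3, Kdelr2, Surf4, Tmed3, Tmed4 and Tmed10 the myotube means lie above the myoblast means in both genotypes, whereas the Tmed7 values of Fam134b KO cells overlap between the stages.

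Whether differentiation changed a gene differently in the genotypes was tested as an interaction. No member was called by limma (0 of 45), against 3.45% of all tested genes. At an unadjusted p under 0.05, 5 members passed: Arf1, Golga2, Sec24c, Sec23a and Copz2. Of all tested genes, 17.4% had an unadjusted p under 0.05. With limma voom on the recovered reads the count of called members was also 0, and with sample weights 3 were called with a positive and 2 with a negative interaction, against 5.74% and 5.6% of all tested genes in that fit. The smallest p was that of Arf1 (0.00478), whose difference between stages was 0.67 higher in Fam134b KO cells (SE 0.21, adjusted p = 0.0917). The calls of Tmed7, Lman1, Kdelr3, Mcfd2, Ergic3 and Sec23a in WT alone are therefore not shown to differ between the genotypes. For Tmed7 the interaction was -0.95 with an SE of 0.53.

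The second question was how the knockout differed from WT at the same stage. In myoblasts, several coatomer subunits were higher in Fam134b KO cells, as were Sec23a, Kdelr3 and Mcfd2. Of the 45 members, 7 were higher and 1 was lower, against 7.26% and 8.5% of all tested genes. The median difference of the members was 0.23, against -0.01 for all tested genes, and 30 of 45 differences were above 0. The genotypes did not overlap in 11 members (24.4%), a share near the 26.8% of all tested genes.

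Of the 9 coatomer genes, 4 were higher: Copa, Copg1, Copg2 and Copz2. Copz2, the second zeta subunit, was at 90.4, 90.7, 127 and 106 in WT myoblasts and at 252, 190.1, 209 and 254 in Fam134b KO myoblasts. The genotypes did not overlap, and the difference was 1.12 with an SE of 0.18 (adjusted p = 0.000116). Copa, the alpha subunit of the outer coatomer layer, was at 746, 755, 704.5 and 603 in WT myoblasts and at 1302, 1683, 1231 and 1099 in Fam134b KO myoblasts. These too did not overlap, with a difference of 0.91 and an SE of 0.16 (adjusted p = 0.000202).

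The gamma subunits, which form part of the inner coatomer layer, were both higher. Copg1 differed by 0.71 (adjusted p = 0.00108). Copg2 was at 28.6, 23.2, 31.0 and 15.2 in WT myoblasts and at 63.9, 50.6, 32.1 and 53.4 in Fam134b KO myoblasts, a difference of 1.01 with an SE of 0.27 (adjusted p = 0.013). The lowest knockout sample, replicate 3, lay just above the highest WT sample. The Copg2 call was lost without WT replicate 4 or without KO replicate 1 (adjusted p = 0.0632 and 0.0586). Copb1, Copb2, Cope and Arcn1 had differences of 0.47, 0.26, 0.35 and 0.14 that were not called, and Copz1 one of -0.17.

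Sec23a was at 203, 199, 182 and 175 in Fam134b KO myoblasts, all above the 4 WT myoblast samples given earlier, with a difference of 0.72 and an SE of 0.19 (adjusted p = 0.0101). Kdelr3 was at 97.8, 115, 96.1 and 65.1 in WT and at 154, 218, 164 and 146 in Fam134b KO myoblasts, with no overlap and a difference of 0.87 (SE 0.26, adjusted p = 0.0269). The Kdelr3 call was lost without WT replicate 3 or 4 or KO replicate 2 or 3 (adjusted p = 0.052 to 0.109). Mcfd2 was higher by 0.69 (adjusted p = 0.0409), a call that held in 1 of the 8 fits that left out 1 library, the one without KO replicate 2, and that was lost without the filter (adjusted p = 0.0513). Preb, the exchange factor that loads SAR1 with GTP, was lower by 0.54 (log2 fold change -0.54, adjusted p = 0.0384), and its call held only without KO replicate 4 among these 8 fits. It was also lost with total scaling, with quantile normalization and with a replicate block (adjusted p = 0.0523 to 0.0589).

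The count of 7 was 4 without WT myoblast replicate 4, and with sample weights 14 members were higher and 4 lower, against 16.4% and 18.7% of all tested genes in that fit. Copa, Copg1 and Copz2 were called under each of the 22 alternative settings. The summed muscle markers given above were lower in every Fam134b KO myoblast sample than in every WT myoblast sample. Of the 8 summed genes, Myf5 went the other way, at 59.8 to 82.0 in WT and 106.7 to 118.5 in Fam134b KO myoblasts. Its log2 fold change was 0.68 and was not called by limma (adjusted p = 0.0955). The summed matrix markers ran from 6100 to 19430 against 3627 to 6892. The summed adipocyte markers did not overlap and were higher in Fam134b KO myoblasts. Their part in the genotype differences was not tested.

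**Figure D3:**
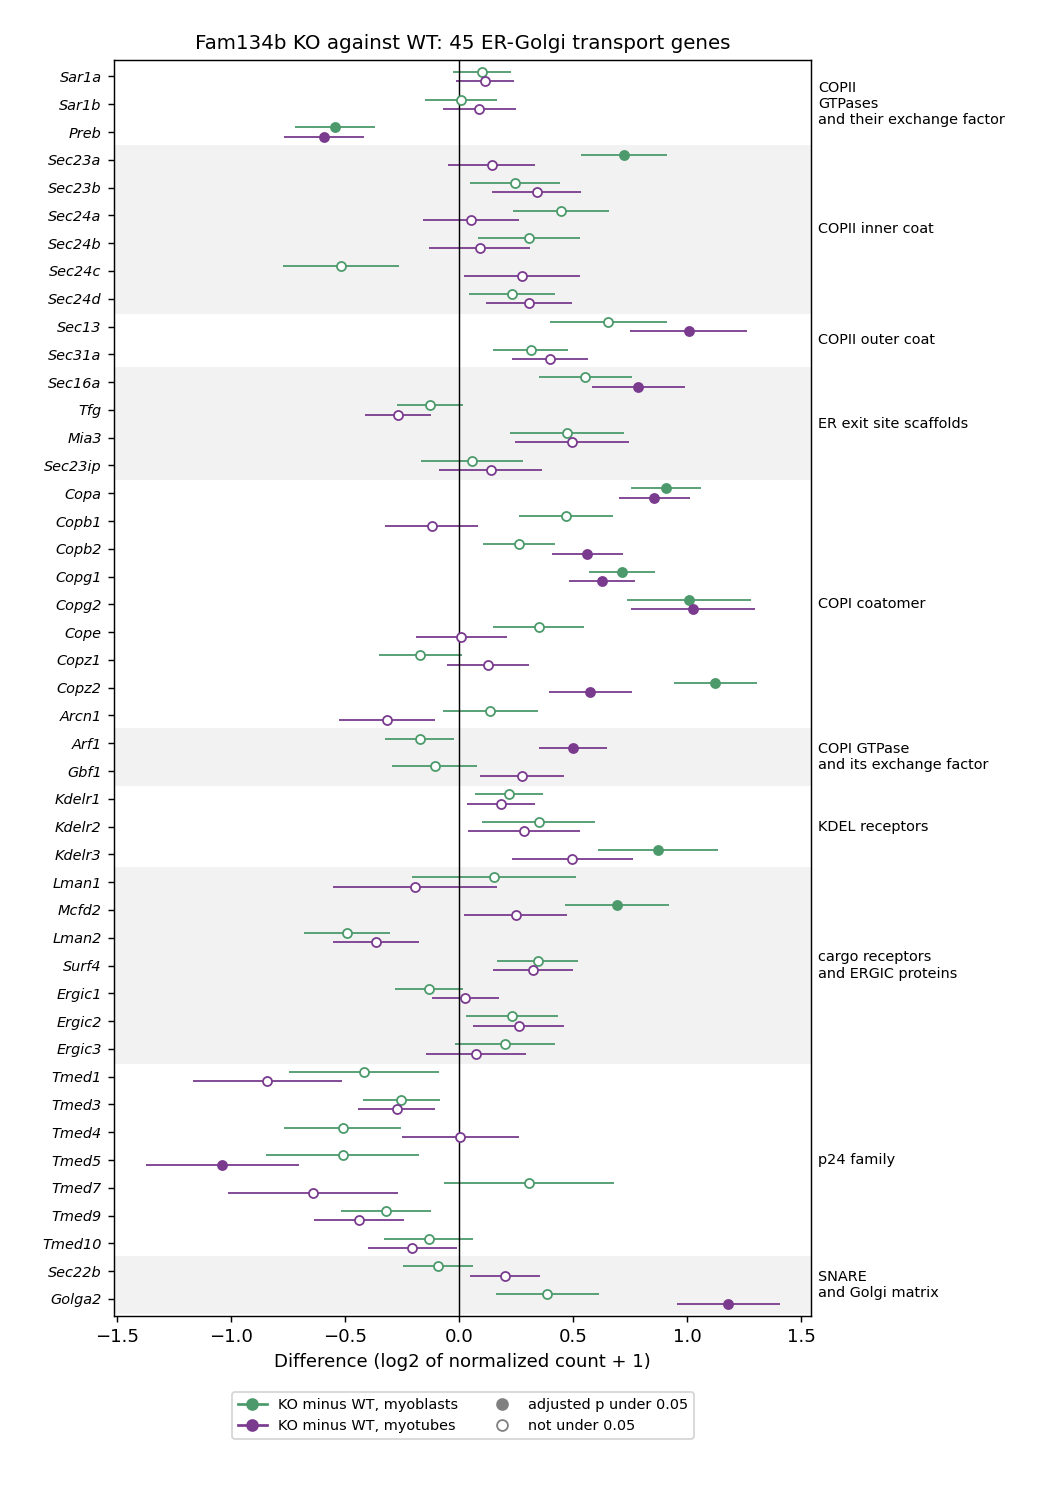
Difference between Fam134b KO and WT for the 45 genes, grouped by role, on the log2 scale of the normalized count plus 1 (horizontal axis), in myoblasts (green) and myotubes (purple). Points are limma estimates, bars are 1 SE, and filled points passed an adjusted p of 0.05. Copa, Copg1, Copg2 and Copz2 are filled and above 0 at both stages, and Preb is filled and below 0 at both.

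In myotubes, 9 of the 45 members were higher in Fam134b KO cells and 2 were lower, against 9.74% and 13.7% of all tested genes. The median difference was 0.14, against -0.07 for all tested genes, and 33 of 45 differences were above 0. The genotypes did not overlap in 12 members (26.7%), against 19.4% of all tested genes.

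The same 4 coatomer genes were higher, and Copb2 besides. Copa was at 841, 819.5, 707 and 704 in WT myotubes and at 1395, 1607, 1351 and 1215 in Fam134b KO myotubes, with no overlap and a difference of 0.85 (SE 0.16, adjusted p = 0.000415). Copg2 was at 42.3, 32.4, 46.5 and 28.7 in WT and at 88.1, 91.9, 68.4 and 60.0 in Fam134b KO myotubes, with no overlap and a difference of 1.03 (SE 0.27, adjusted p = 0.0093). Copg1 was higher by 0.63, Copz2 by 0.58 and Copb2 by 0.56 (adjusted p = 0.00309, 0.0268 and 0.013). The Copz2 call was lost without WT replicate 1 or 3 or KO replicate 2 or 3 (adjusted p = 0.0518 to 0.0867), with only the samples compared (0.0902) and with sample weights (0.085). The Copb2 call was lost without WT replicate 3 (adjusted p = 0.0521) and without both shallow libraries (0.0805).

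Golga2 (GM130), a Golgi matrix protein that tethers incoming vesicles, had the largest difference. It was at 90.7, 70.2, 78.1 and 61.4 in WT myotubes and at 112, 159, 185 and 249.8 in Fam134b KO myotubes. The genotypes did not overlap, and the difference was 1.18 with an SE of 0.22 (adjusted p = 0.000652). The knockout samples spread over a wide range, which the pooled SE does not measure. Arf1, whose values in both myotube groups did not overlap either (1239 to 1724 in WT, 1998 to 2238 in Fam134b KO), was higher by 0.50 (adjusted p = 0.02), a call lost without WT replicate 3 (adjusted p = 0.0834), with only the samples compared (0.0881) and without both shallow libraries (0.0528).

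Among COPII genes, Sec13, which builds the outer cage with Sec31a and is also a nuclear pore subunit, was at 468, 384, 291 and 349 in WT myotubes and at 1147, 667, 954.5 and 408 in Fam134b KO myotubes. KO replicate 4, the least deep library, overlapped the WT samples, and the difference was 1.01 with an SE of 0.25 (adjusted p = 0.00658). Sec31a had a difference of 0.40 that was not called, although its samples did not overlap. Sec16a was higher by 0.79 (adjusted p = 0.00745), with no overlap.

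Preb was again lower, by 0.59 (log2 fold change -0.59, adjusted p = 0.0182), a call lost without WT replicate 2 (adjusted p = 0.0577), with only the samples compared (0.0742) and without both shallow libraries (0.104). With sample weights its log2 fold change was -0.36 and it was not called (adjusted p = 0.197). The p24 gene Tmed5 was at 58.7, 56.7, 58.5 and 70.3 in WT myotubes and at 39.7, 10.2, 43.2 and 40.0 in Fam134b KO myotubes. It was lower by 1.04 (log2 fold change -1.04, SE 0.33, adjusted p = 0.0287) with no overlap. Fam134b KO replicate 2 stood far below its group, and its value rested on 7 reads. Without that library the log2 fold change was -0.56 and the call was lost (adjusted p = 0.0747), as it was without WT replicate 3 or 4 (adjusted p = 0.057 and 0.0791) and with only the samples compared (0.0985). The median difference of the 7 p24 genes was -0.44, after -0.32 between the genotypes in myoblasts, where none of them was called. None of the 10 KDEL receptors, cargo receptors and ERGIC proteins was called between the genotypes in myotubes.

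Sec13, Sec16a, Copa, Copg1, Copg2 and Golga2 were called under each of the 22 alternative settings. The summed muscle markers of the myotube groups did not overlap and were lower in Fam134b KO, the matrix markers overlapped (13860 to 25900 in WT, 20040 to 42830 in Fam134b KO), the summed proliferation markers were lower in Fam134b KO without overlap (1789 to 2916 in WT, 773 to 1385 in Fam134b KO), and the summed adipocyte markers were higher without overlap (54.9 to 157 in WT, 166 to 400 in Fam134b KO). Both shallow libraries belong to the Fam134b KO myotubes. Without these 2 libraries 8 members were higher and 1 was lower, but they were not all the same genes. Copb2, Arf1, Preb and Tmed5 were no longer called, while Kdelr3 was called higher (log2 fold change 1.00, adjusted p = 0.00981) and Tmed1 lower (log2 fold change -1.03, adjusted p = 0.0356). The count of 2 lower members was 4 without KO replicate 1 and 1 without WT replicate 2, 3 or 4. The part of the markers was not tested.

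**Figure D4:**
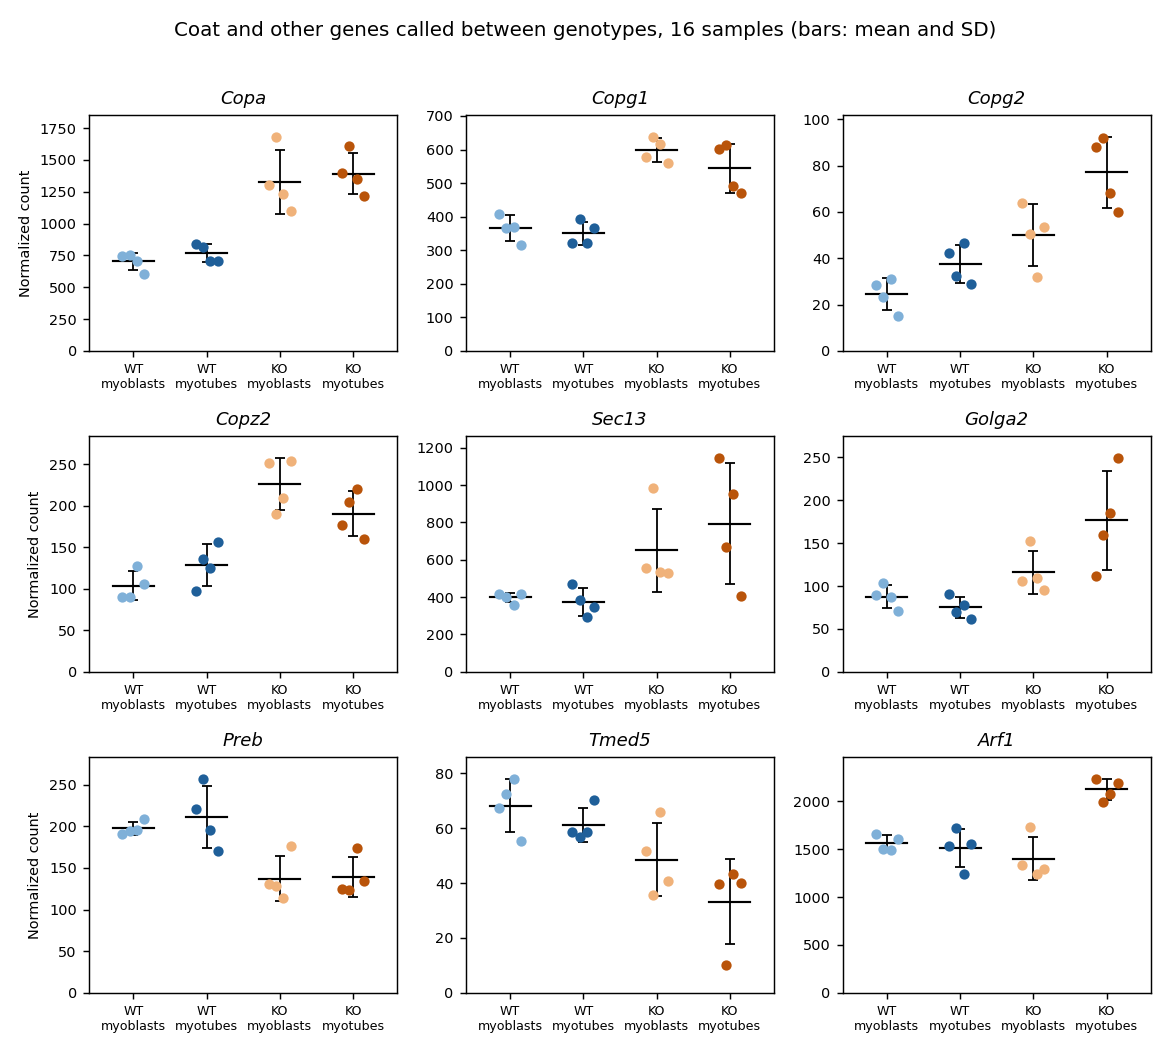
Normalized counts (vertical axis) of 9 genes called between the genotypes in the 16 samples, 4 per group. Points are samples, horizontal lines are means and bars are 1 SD. Copa, Copg1, Copg2 and Copz2 lie higher in every Fam134b KO sample than in every WT sample of the same stage. Sec13 does so in myoblasts, although it was not called there by limma (adjusted p = 0.0901). It was called there in the fit without both libraries under 2000000 reads (adjusted p = 0.017). The 4 Fam134b KO myotube samples of Sec13 spread from 408 to 1147.

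The genotype comparisons at both stages share no samples, but they too take the spread of a gene from the same fit, so their calls are not independent. Copa, Copg1, Copg2 and Copz2 were higher and Preb lower at both, which makes 5 of the 8 members called in myoblasts and 5 of the 11 called in myotubes. As shares, 8.89% of the members were higher at both stages and 2.22% lower, against 3.48% and 5.17% of all tested genes. The sign was the same in 34 of the 45 members (75.6%) and in 66.2% of all tested genes, and Pearson's r was 0.67 across the members and 0.62 across all tested genes.

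Several subunits exist as paralog pairs, so the log2 ratio of both paralogs was compared between groups within each sample, which cancels any scaling of the library. Among 32 such tests (8 pairs in 4 comparisons), 7 reached 0.0286, the smallest p that the exact two-sided permutation test of 4 against 4 samples can give, and none passed adjustment over the 32 tests (smallest adjusted p = 0.131). The log2 ratio of Copz2 to Copz1 was -3.91 ± 0.07 (SD, n = 4) in WT myoblasts, -2.97 ± 0.34 in WT myotubes and -2.62 ± 0.27 in Fam134b KO myoblasts, and both differences from WT myoblasts had this smallest exact p before adjustment. The ratio of Sec23a to Sec23b was 0.45 ± 0.35 in WT myoblasts, 1.28 ± 0.27 in WT myotubes and 0.92 ± 0.09 in Fam134b KO myoblasts, with the same exact p for both differences. Sec24d to Sec24c was higher by 0.58 in WT myotubes than in WT myoblasts, Copg2 to Copg1 by 0.78 in Fam134b KO myotubes than in Fam134b KO myoblasts, and Kdelr3 to Kdelr1 by 0.65 in Fam134b KO than in WT myoblasts. Paralogs in each pair are similar in sequence, and how reads shared by both were counted is not stated.

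**Figure D5:**
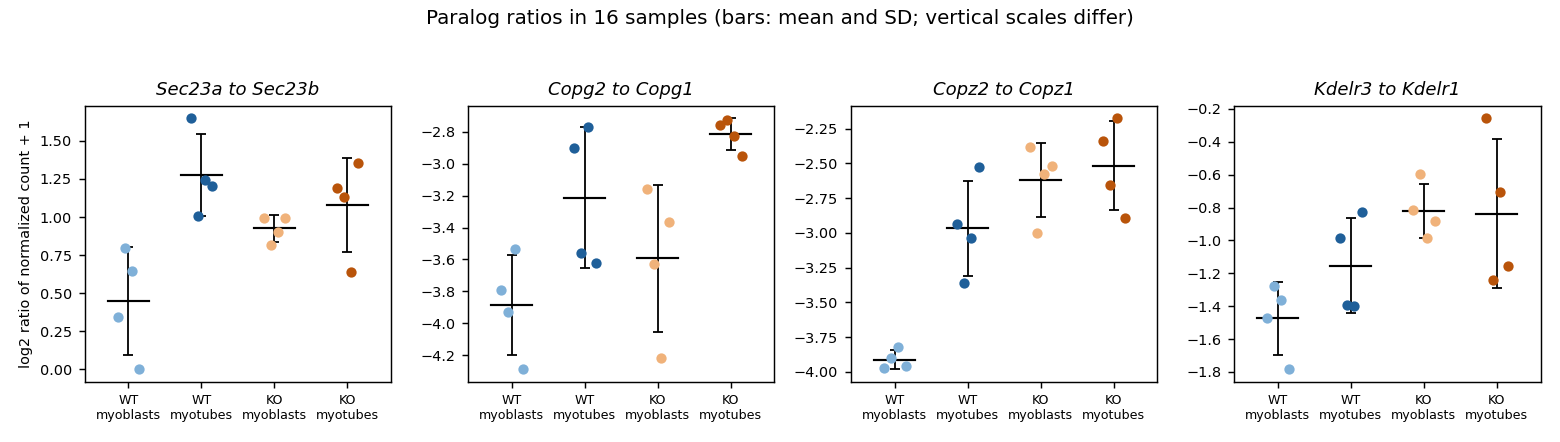
Log2 ratio of the normalized counts plus 1 of 4 paralog pairs (vertical axis, scales differ between panels) in the 16 samples, 4 per group. Points are samples, horizontal lines are means and bars are 1 SD. The WT myoblast samples lie below the WT myotube and Fam134b KO myoblast samples in the ratio of Sec23a to Sec23b and of Copz2 to Copz1.

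The rest of the pathway was read from lists of its other parts. Of 85 listed tethers, SNAREs, coat regulators, further cargo receptors and transcription factors, 79 were tested. In WT differentiation 6 rose and 2 fell (7.59% and 2.53%, against 13.8% and 9.16% of all tested genes). In Fam134b KO differentiation 8 rose and 7 fell (10.1% and 8.86%, against 17.3% and 16.1%). In Fam134b KO against WT 3 were higher and 2 lower in myoblasts (3.8% and 2.53%, against 7.26% and 8.5%) and 5 higher and 4 lower in myotubes (6.33% and 5.06%, against 9.74% and 13.7%), with no interaction called by limma. The medians of these 4 comparisons were 0.03, 0.03, 0.08 and 0.02. Uso1 (p115), a tether that works with Golga2, rose in both genotypes.

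Among 5 transcription factors of the secretory pathway, Xbp1, which acts in the unfolded protein response, rose in WT differentiation by 1.12 (SE 0.27, adjusted p = 0.00473), with group means of 169.9 ± 23.5 and 377 ± 96.0 (SD, n = 4). In Fam134b KO cells the means were 262 ± 36.7 and 284 ± 115 (adjusted p = 0.999 for their difference), and the interaction of -1.12 was not called (adjusted p = 0.114). These counts do not separate spliced from unspliced Xbp1 mRNA. Creb3l2, which drives COPII genes such as Sec23a in cartilage, rose by 1.04 in WT and by 1.10 in Fam134b KO cells (adjusted p = 0.00269 and 0.000962). Creb3l1 rose by 0.66 in Fam134b KO differentiation, and in myotubes it was higher in Fam134b KO by 0.65. Atf6 was lower in Fam134b KO than in WT myotubes by 0.98 (log2 fold change -0.98, adjusted p = 0.0262).

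In the rest of the pathway, Sec16b, a relative of Sec16a that also marks exit sites, was higher in Fam134b KO by 1.12 in myoblasts and 1.19 in myotubes (adjusted p = 0.0196 and 0.011). The TGACGTGG core occurred in promoters of 3 of the 72 other pathway genes that had a promoter, Sec16b among them. Bcap29, an ER membrane protein of the cargo export group, was lower in Fam134b KO myotubes than in WT myotubes by 1.84 (log2 fold change -1.84, adjusted p = 0.000574), with means of 10.5 ± 4.07 and 40.2 ± 13.6 (SD, n = 4), and its lowest value rested on 3 reads.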

How the data were processed

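Total RNA of the 16 cultures was made into digital mRNA-seq libraries and sequenced single-end. Trimming with bbduk, alignment to mm10 with STAR 2.6.0a and counting with HTSeq-counts were done by the authors, and the tool behind their normalization is not given in the sources used here. The deposited values are log2 values of a normalized count plus 1, as made by the authors. After undoing the log2 step, the values of a sample are whole multiples of 1 step, and the reads recovered from these steps gave depth, read floors and the input of limma voom. A floor of 3 reads corresponds to a normalized count of 2.49 to 5.99 and covers counting error only. Count models were not fitted to the recovered reads, a choice made because the deposited unit is log2.

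The 10767 of 31053 genes that reached a normalized count of 10 in 4 or more samples were fitted with limma 3.58.1 in R 4.3.3 with 4 group means, no covariates and a trended empirical Bayes variance, and p-values were adjusted over all of them by Benjamini-Hochberg. The procedure was tested on simulated data in which every gene and group had the same spread beyond counting error. That setting does not cover the wider spread of the Fam134b KO myotubes, and no call here rests on it. The lowest correlation between replicates was 0.879 in Fam134b KO myotubes and 0.968 in WT myoblasts. Groups and replicate numbers were taken from the sample titles, while a separate genotype field reads unknown. Values of single samples were given for the 5 called members with the largest absolute differences in each comparison. Outside that rule they were also given for Sec23a in WT differentiation and for Arf1 and Tmed7 in Fam134b KO differentiation. Further members were named by role after their values had been seen. The members, the pathway and marker lists and the tests were chosen with earlier results of these data known. Paralog ratios were compared with exact two-sided permutation tests. Alternatives were a pseudocount of 0.5 or 5, the filter dropped or raised to 50, total, quantile and median-ratio scaling, limma voom, sample weights, only the samples compared, a replicate block, an adjusted p under 0.01, an absolute log2 difference of at least 0.5, each sample left out in turn and, chosen after seeing the data, a fit without both libraries under 2000000 reads. Promoter sequences came from RefSeq on GRCm38.p6. Protein sequences were not analysed here, and neither were Tmed2, Rab1a and Mymk, which were not matched by symbol.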

Additional observations from a re-analysis of the deposited data

Results flagged for a closer look

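In each of the 180 sets of 4 samples (45 genes in 4 groups), the distance of the highest or the lowest sample from its nearest neighbour was divided by the range of the group. In 11 sets this share was above the critical value of Dixon's test at 95%. Chance alone flags about 1 in 20 such sets. In WT myoblasts these were Tfg, with replicate 2 at 302 above 243 to 250.2 in the others (share 0.871), and Cope, with replicate 2 at 536 below 842 to 911 (0.852). In WT myotubes they were Sec24c with replicate 3 at 156 below 248 to 273 (0.831), Sec31a with replicate 3 at 466 above 411 to 418 (0.864), and Surf4 with replicate 1 at 779.6 above 536 to 551 (0.928). Also in WT myotubes, Tmed5 replicate 4 was at 70.3 above 56.7 to 58.7 (0.837), and Tmed7 replicate 2 at 95.4 below 221 to 262 (0.833). In Fam134b KO myoblasts Sec13 replicate 2 was at 984 above 528 to 555 (0.921). In Fam134b KO myotubes Sec24c replicate 1 was at 335 above 258 to 263 (0.934), Copb1 replicate 4 at 81.9 below 131 to 138 (0.898), and Tmed5 replicate 2 at 10.2 below 39.7 to 43.2 (0.94).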

How the results depend on the processing

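Counts are of called members, higher and then lower, unless pathway genes are named. In WT differentiation they were 15 and 1, and 8 and 0 at an adjusted p under 0.01. Leaving out 1 library gave 8 to 15 and 0 to 1. In Fam134b KO differentiation they were 12 and 1, with 10 to 14 and 0 to 2 on leaving out 1 library, 0 lower at an adjusted p under 0.01 and 2 lower with sample weights. For Fam134b KO against WT myoblasts they were 7 and 1. The lower count was 0 with total scaling, with quantile normalization and with the replicate block, the counts were 14 and 4 with sample weights and 3 and 0 at an adjusted p under 0.01, and leaving out 1 library gave 4 to 7 and 0 to 1. For Fam134b KO against WT myotubes they were 9 and 2, with 0 lower with only the samples compared and at an adjusted p under 0.01, 1 lower without both libraries under 2000000 reads (chosen after seeing the data), and 6 to 9 and 1 to 4 on leaving out 1 library. For the interaction, sample weights gave 3 and 2 in place of 0, and leaving out 1 library gave 0 to 2 and 0.

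Pathway genes in WT differentiation (6 and 2) were 10 and 9 with only the samples compared, and the lower count was 1 with a pseudocount of 0.5, 0 without the filter and 4 with quantile normalization. In Fam134b KO differentiation 5 were higher with only the samples compared. In Fam134b KO against WT myoblasts (3 and 2) 7 were higher with only the samples compared, and 1 was lower without the filter, with a minimum of 50 and with total or quantile scaling. In myotubes (5 and 4) 2 were lower without the filter, with the replicate block and with only the samples compared, which left 3 higher. The interaction gave 1 lower with a pseudocount of 5 and with total or quantile scaling. The cause of these changes was not tested. Over all genes of WT differentiation, 1488 were higher and 986 lower, and with quantile normalization 1418 and 1434.

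No called member changed direction in the comparison of its call under the settings run. The values showed little pairing by replicate number. Deviations from the group means correlated at 0.03 on average between samples of the same number (-0.22 to 0.37) and at -0.01 between others. These averages cannot show whether cultures of the same number were handled together. The block changed the members' counts to 14 higher in WT differentiation (Ergic3 lost) and 0 lower in myoblasts (Preb lost), and left the members' other counts as they were. Depth limits Copg2, Tmed1, Tmed4 and Tmed5 most, whose lowest values rest on fewer than 30 reads.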
